A study of Mus musculus with 101 samples.

Results

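Mouse chromosome 16 was followed through the 1054 genes that the GRCm38 RefSeq annotation places on it, of 43513 genes in the deposited copy-number tables. They run from 3.6 to 98.1 Mb and comprise 601 protein-coding genes, 198 pseudogenes, 154 long non-coding RNA genes, 32 microRNA genes and smaller classes. A further 7 genes of the chromosome were left out by the choice of members. The chromosome was chosen by measured values, namely its losses in KB1P tumours against the other genotypes and its levels by histology within KB1(L1363P)P and KP. These comparisons are therefore given as descriptions, with no test. Only contrasts that were not themselves part of the choice were tested. Their groups supplied values to the choice, so these tests are not independent of it.

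Low-coverage DNA sequencing covered 98 mammary tumours of mice and 3 normal spleens. In the usual naming of these mouse models all 4 tumour groups have lost the tumour suppressor Trp53 through a Cre recombinase driven by a keratin promoter (K), which acts in epithelial cells. KP tumours (n = 18) have this loss alone, KB1P tumours (n = 31) have also lost Brca1, and KB2P tumours (n = 25) have also lost Brca2. KB1(L1363P)P tumours (n = 24) carry a missense variant of Brca1. By histology this last group split into 12 sarcomatoid tumours, 9 carcinosarcomas and 3 adenocarcinomas. KP comprised 10 sarcomatoid tumours, 2 carcinosarcomas and 6 adenocarcinomas. KB1P held 29 adenocarcinomas with 1 carcinosarcoma and 1 sarcomatoid tumour, and all 25 KB2P tumours were adenocarcinomas. The sources used here do not give the strain or age of the mice, or whether each tumour came from its own animal. Tumours are numbered within a genotype as replicates, in an order that carries no meaning.

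A gene in a diploid cell has a copy on each homologue, and loss or gain of a chromosome or arm changes all of its genes together. Brca1 and Brca2 act in homologous recombination, the error-free repair of broken DNA, and tumours without it are known for many broken and rearranged chromosomes. Mouse chromosome 16 carries the counterpart of much of the human Down syndrome region, with Runx1, Erg, Ets2 and Dyrk1a, and of the human DiGeorge region, with Tbx1, Crkl and Cdc45. It also carries receptors for interferons, receptors and ligands that tune T cells, and the microRNA cluster of miR-99a, let-7c and miR-125b. All values below are DNA copy number, and expression of these genes was not analysed here.

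The tables hold a segment value per gene, which is the log2 ratio of read depth after neighbouring bins with the same level were joined, and a whole-number copy score with 2 as the neutral state. A score below 2 is called a loss here and a score above 2 a gain. Among the chromosome 16 genes the highest segment value with a loss call was -0.422, the lowest value called neutral was -0.408 and the lowest value with a gain call was 0.303. In the 3 spleens no gene of the chromosome was called altered, and the largest segment value was 0.0032 in size. The noise between neighbouring log2 ratios was 0.041 to 0.114 per tumour, with medians of 0.054 to 0.057 in the 4 genotypes. In bulk DNA, a change in fewer of the cells and a smaller change in all of them cannot be told apart. KB2P shared no library series with another genotype, and the effects of both cannot be told apart there. KB1P replicate 8 carries conflicting model names in its labels and was kept under its genotype label.

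Profiles of 2 KB2P tumours stood apart in being nearly the same. Over all 43513 genes the segment values of replicates 10 and 12 had a correlation of 0.986, whereas the highest value over the other 299 KB2P pairs was 0.474. On chromosome 16 they had the same copy score at 1025 of the 1054 genes and shared 5 of their 7 and 8 breakpoints. They came from different library series, and the noise around their segments had a correlation of 0.402, below the highest of the other pairs at 0.466. Both were kept, and KB2P values are also given without replicate 12.

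For reference, mature sequences are given of listed microRNAs whose genes lay in the changes of high amplitude described below, except Mir1306. They are written 5′ to 3′ as in RefSeq for GRCm38.p6, with the seed (bases 2 to 8) in capitals. The 22 mature arms available for the 12 listed microRNA genes had 22 distinct seeds. For Mir301b and Mir185 the other arm was not available, and its seed was not compared. On the plus strand, miR-99a-5p lies at chr16:77598940-77598961, let-7c-5p at chr16:77599672-77599693, miR-125b-5p at chr16:77646279-77646300 and miR-155-5p at chr16:84714143-84714165. The miR-28a-5p sequence, at chr16:24827868-24827889 on the plus strand, lies within the span of the Lpp gene.
miR-99a-5p: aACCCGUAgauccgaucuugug
let-7c-5p: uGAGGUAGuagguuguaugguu
miR-125b-5p: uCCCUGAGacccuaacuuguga
miR-155-5p: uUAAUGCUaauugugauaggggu
miR-28a-5p: aAGGAGCUcacagucuauugag
miR-130b-3p: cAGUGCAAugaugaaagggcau
miR-301b-5p: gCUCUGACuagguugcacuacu
miR-185-3p: aGGGGCUGgcuuuccucuggu
miR-193b-3p: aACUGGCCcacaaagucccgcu
miR-365-3p: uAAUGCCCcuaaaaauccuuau

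Of the 2 most-lost intervals of KB1P described below, the first ends at the protein-coding gene Umps. The most-lost interval of KB2P ends at the protein-coding gene Vps8. The 250 bases before the start of these genes are shown. The Umps stretch lies just beyond the end of its interval, whereas Vps8 starts inside its interval and its stretch does not mark the border. Both are written on the gene's own strand with each CG pair in capitals. The Umps stretch lies at chr16:33967039-33967288 (GRCm38.p6, minus strand) and holds 10 CG pairs. The Vps8 stretch lies at chr16:21422868-21423117 (GRCm38.p6, plus strand) and holds 13 CG pairs. Over the 32851 promoters of the RefSeq table the median was 6.0, and 92.1% held at least 1 CG pair. CG is its own reverse complement, so that both strands give the same count.
Umps: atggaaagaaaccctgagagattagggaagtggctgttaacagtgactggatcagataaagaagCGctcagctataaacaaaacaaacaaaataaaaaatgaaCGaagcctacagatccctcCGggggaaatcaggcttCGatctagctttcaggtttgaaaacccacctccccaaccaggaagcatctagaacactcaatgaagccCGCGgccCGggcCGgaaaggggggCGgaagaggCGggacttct
Vps8: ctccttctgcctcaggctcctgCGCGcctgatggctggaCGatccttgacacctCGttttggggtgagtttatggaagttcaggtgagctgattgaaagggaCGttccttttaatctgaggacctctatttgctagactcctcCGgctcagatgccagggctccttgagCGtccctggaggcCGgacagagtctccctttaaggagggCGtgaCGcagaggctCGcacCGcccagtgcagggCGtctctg

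KB1P tumours had the highest lost share of chromosome 16, the percent of its 1054 genes with a loss call. In KB1P this share was 31.3% ± 37.7 (SD, n = 31), with a median of 7.69% and a range from 0 to 100%. For KB1(L1363P)P it was 8.60% ± 28.2 (SD, n = 24). For KB2P the mean was 5.14% ± 17.0 (SD, n = 25). In KP it was 0% in all 18 tumours, and 0 of 18 allows up to 16.7% of tumours with a loss. At least 1 gene was lost in 20 of 31 KB1P, 3 of 24 KB1(L1363P)P and 5 of 25 KB2P tumours. The means of KB1(L1363P)P and KB2P rest on few tumours. Without replicate 3, whose genes all lay at the edge of the loss call at -0.42, KB1(L1363P)P stood at 4.63%, and the same was found without replicate 15. Without replicate 15, KB2P stood at 2.01%. Leaving out any 1 KB1P tumour kept that mean between 29.0% and 32.4%.

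The highest gained share was that of KB2P tumours. It was 16.7% ± 29.9 (SD, n = 25) and 14.5% without replicate 12. In KB1P the gained share was 3.78% ± 7.80 (SD, n = 31), against 0.416% in KP and 0.391% in KB1(L1363P)P. The KP value comes from replicate 4 and the KB1(L1363P)P value from replicate 21 alone, and both are 0 without that tumour. Any gain was called in 8 of 25 KB2P, 7 of 31 KB1P, 1 of 18 KP and 1 of 24 KB1(L1363P)P tumours.

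The mean segment value over the 1054 genes was lowest in KB1P and highest in KB2P. KB1P had -0.175 ± 0.248 (SD, n = 31), with 14 of 31 tumours below -0.2 and 5 of 31 above 0.05. In KB2P it was 0.019 ± 0.214 (SD, n = 25), with 2 tumours below -0.2 and 8 above 0.05. The mean of KB1(L1363P)P was -0.045 ± 0.159 (SD, n = 24). That of KP was -0.024 ± 0.068 (SD, n = 18). The groups overlapped, since the highest KB1P tumour, replicate 12, lay at 0.28 and the lowest KB2P tumour, replicate 15, at -0.73. KP was the narrowest group, from -0.172 to 0.16.

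**Figure D1:**
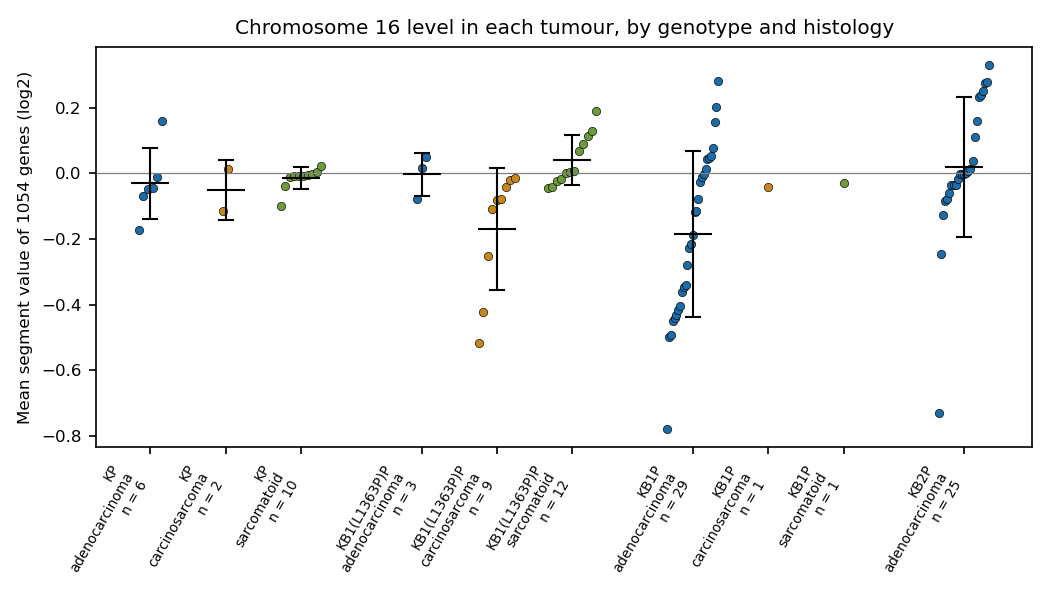
Mean segment value (log2) of the 1054 chromosome 16 genes in each tumour (points), by genotype and histology, with the group mean and SD as black bars where n is over 1. KB1P adenocarcinomas reach down to -0.779, all 9 KB1(L1363P)P carcinosarcomas lie below 0, and KP tumours stay between -0.172 and 0.16.

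Set against other chromosomes, chromosome 16 stood out for its gap between KB1P and KB2P, a comparison that entered the choice of the chromosome. Over all genes of the table the lost share was 18.3% in KB1P, 19.1% in KB2P, 4.94% in KB1(L1363P)P and 5.29% in KP. The lost share of chromosome 16 ranked 5 of 20 chromosomes in KB1P and 17 of 20 in KB2P. The difference of 26.2 points was the highest of the 20, before chromosome 3 at 10.9 points, while chromosome 13 had the lowest at -21.4 points. In the gained share chromosome 16 ranked 20 of 20 in KB1P. A chromosome 16 gene was lost in a median of 10 KB1P tumours, against 5 over all genes, and gained in a median of 1, against 5. In KB2P the medians were 1 tumour with a loss, against 4 over all genes, and 4 tumours with a gain, as over all genes.

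Histology and library series were unequal between the genotypes, and their part in the KB1P level was not tested. Among adenocarcinomas alone the lost share was 33.5% in KB1P (n = 29), 5.14% in KB2P (n = 25), 2.15% in KB1(L1363P)P (n = 3) and 0% in KP (n = 6). Within library series 5289, which 3 genotypes share, it was 36.6% in KB1P (n = 10), 10.0% in KB1(L1363P)P (n = 20) and 0% in KP (n = 3). Within KB1P it was 41.3% in series D (n = 11) and 17.8% in series 2766 (n = 8). The 10 KB1P adenocarcinomas titled KB1PM had 26.1% ± 34.4 (SD) and the 19 titled KB1P had 37.4% ± 40.2 (SD). The sources used here do not say what the M stands for.

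Losses ranged from under 1% of the genes to the whole chromosome. Counting at least 90% of genes as whole and 10 to under 90% as partial, 3 KB1P tumours had a whole and 10 a partial loss, while the other 7 with any loss had lost 0.854 to 9.11% of the genes. KB1P replicate 18 was lost evenly at -0.49. Replicate 3 was lost at -0.80 up to 73.6 Mb and -0.72 beyond, with a short break at Robo2, and replicate 13 at -0.45 from the first gene to Sim2. KB1(L1363P)P had 2 whole losses, replicate 15 at -0.52 and replicate 3 at -0.42, both without a breakpoint. KB2P had 3 partial losses and no whole one, and 7 partial gains. The deepest of these losses was replicate 15, at -0.90 from Klhl22 to the end of the chromosome. No tumour had a gain call over at least 90% of the chromosome.

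Along the chromosome, the losses of KB1P were most frequent in the middle and least frequent near 11 Mb. A loss was called in 13 of 31 KB1P tumours at 63 genes from AV205837 to Umps (chr16:31325290-33967038). Umps makes uridine monophosphate, a building block of RNA and DNA. The same count was found at 61 genes from Gm49738 to Gm18169 (chr16:42196682-47212895), which include Zbtb20, Btla and Cd200. The count was lowest at 6 of 31 from Atf7ip2 to Gm15897 (chr16:10192649-11759095), which include Socs1, Rmi2 and Tnfrsf17. In windows of 10 Mb the mean lost share ran from 22.4% in the window from 10 to 20 Mb to 41.0% in that from 40 to 50 Mb.

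**Figure D2:**
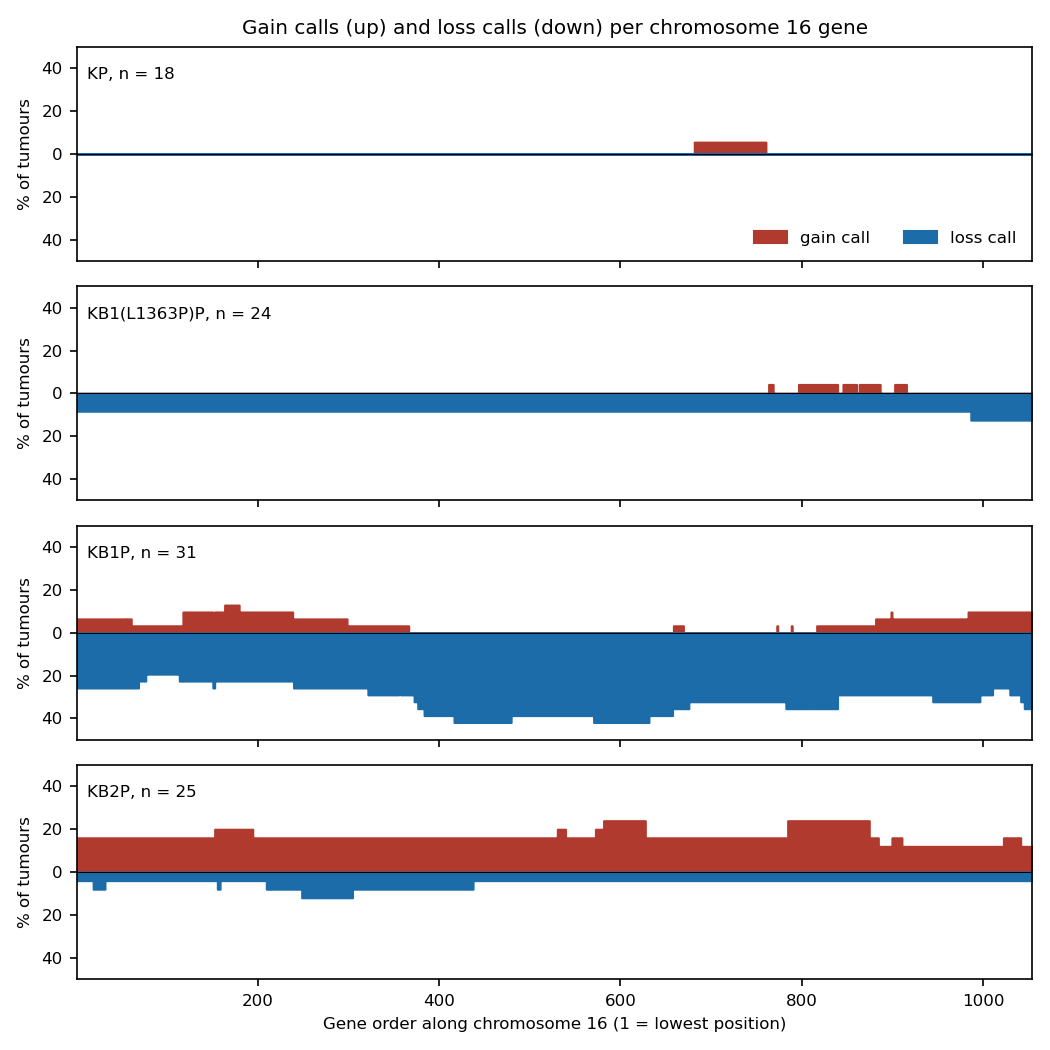
Percent of tumours of each genotype with a gain call (red, upward) or a loss call (blue, downward) at each of the 1054 genes, in order along the chromosome. KB1P losses peak at 13 of 31 tumours and no gain was called in the same stretches, whereas KB2P gains reach 6 of 25 tumours.

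In KB1P no gain was called at 437 genes, of which 292 lie in 1 run from Tprg to Bbx (chr16:25286817-50432466). The most frequent gain, in 4 of 31 tumours, took in 16 genes, among them Dnm1l, a GTPase of mitochondrial division, and Top3b, a topoisomerase. At Top3b these 4 gains stood beside 7 losses in other KB1P tumours, and its segment value ran from -1.28 through a median of -0.027 to 1.02.

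KB2P differed in both kinds of change. Its most frequent loss, in 3 of 25 tumours, covered 56 genes from Gm18747 to Vps8 (chr16:19018058-21644681), where Vps8 encodes a subunit of a tethering complex of early endosomes. Its most frequent gains, in 6 of 25 tumours, covered 46 genes from Tigit to Gm4737 (chr16:43626137-46155077) and 90 genes from Gm5221 to Gabpa (chr16:65793232-84863783). Tigit encodes an inhibitory receptor of T and NK cells and Gabpa an ETS transcription factor. Without replicate 12 the highest count of gains at any gene was 5 of 24. The first of these gained intervals lies inside the second most-lost interval of KB1P.

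In KB1(L1363P)P a loss was called in 2 of 24 tumours over most of the chromosome and in 3 of 24 from Smim11 to A630089N07Rik (chr16:92301241-98082439), the last 68 genes. In KP the sole called change was a gain of 79 genes from Gm19771 to Gm9017 (chr16:55739918-60614264) in replicate 4, an adenocarcinoma, at 0.57. This interval includes Nfkbiz, a regulator of NF-kB target genes, and Epha6, an ephrin receptor.

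**Figure D3:**
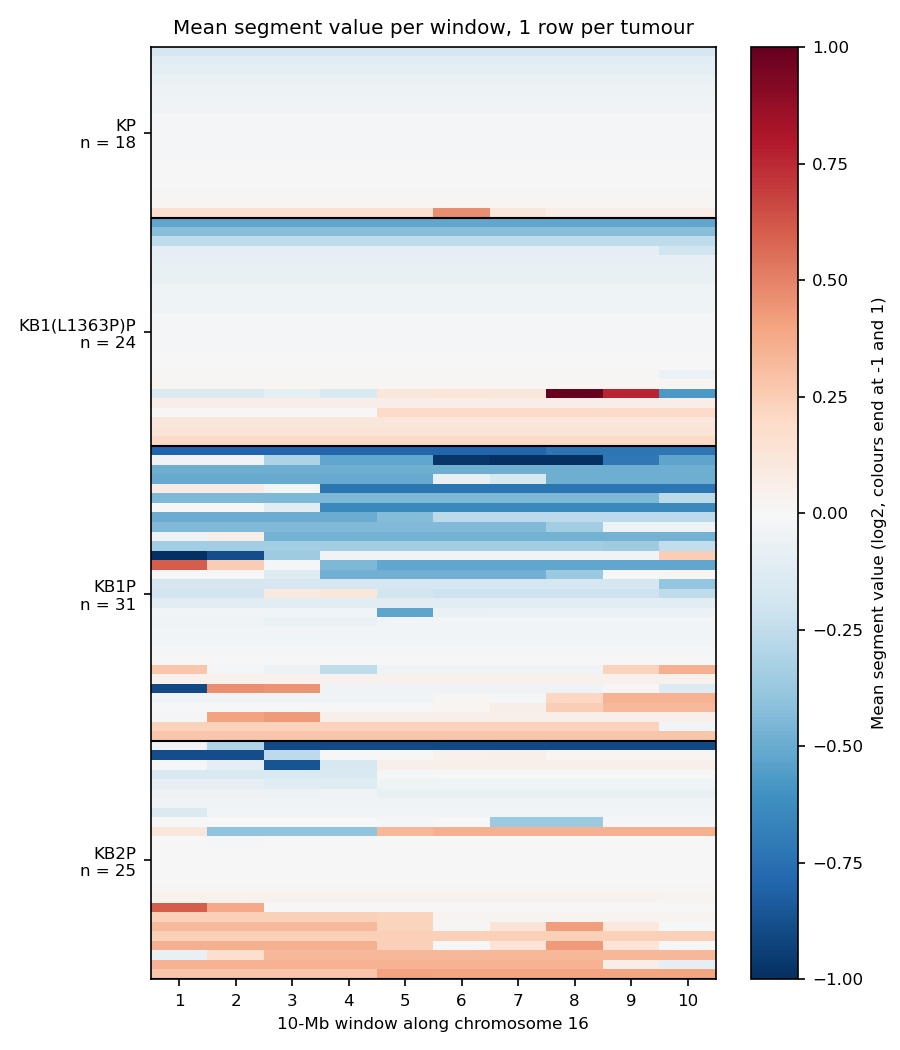
Mean segment value (log2, colour) in 10 windows of 10 Mb along chromosome 16 for the 98 tumours, 1 row each, sorted by mean level within a genotype. All KP rows but that of replicate 4 are nearly uniform, the 2 lowest KB1(L1363P)P rows are evenly low, and 22 of 31 KB1P and 16 of 25 KB2P tumours have a breakpoint, seen as a change of level along the row.

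Within KB1(L1363P)P the level of the chromosome differed in range between the histology classes, here as a description. All 9 carcinosarcomas lay below 0, from -0.518 through a median of -0.081 to -0.015, with a mean of -0.170 ± 0.185 (SD). The 12 sarcomatoid tumours ran from -0.044 through 0.005 to 0.189, with a mean of 0.039 ± 0.076 (SD), and none had a called gene. The 3 adenocarcinomas lay at -0.077, 0.017 and 0.049. The carcinosarcoma and sarcomatoid ranges overlapped between -0.044 and -0.015. The mean lost share was 22.2% in carcinosarcomas, from replicates 15 and 3 alone. A carcinosarcoma holds epithelial and mesenchymal tumour cells. Per the labels, the percentage epithelial was 85% in replicate 15, 40% in replicate 3 and 85% in replicate 22, the 3 lowest tumours at -0.52, -0.42 and -0.25. It was 98, 90, 95, 2, 5 and 75% in replicates 5, 23, 17, 11, 2 and 24, which lay at -0.108, -0.081, -0.077, -0.042, -0.021 and -0.015. Its part in the level was not tested. Library series 5289 held 6 of the carcinosarcomas, with a mean of -0.198 ± 0.215 (SD), and all 12 sarcomatoid tumours.

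In KP the classes lay close together. The 10 sarcomatoid tumours had a mean of -0.015 ± 0.033 (SD), the 6 adenocarcinomas -0.030 ± 0.108 (SD), and the 2 carcinosarcomas lay at -0.115 and 0.013. The sarcomatoid tumours fill library series 5750, so that series and class cannot be told apart there. In 3 cases KB1(L1363P)P titles share a number before the point, and the labels do not say whether such tumours grew in the same animal. Sarcomatoid tumour 26.1 lay at 0.19 and adenocarcinoma 26.2 at 0.017, and sarcomatoid tumour 7.1 lay at 0.067 and adenocarcinoma 7.2 at -0.077. The carcinosarcomas 54.1 and 54.2 lay at -0.081 and -0.015.

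Among the 15 listed transcription factors a loss was called in 7 to 13 KB1P tumours, with a median of 9, against 10 over all genes of the chromosome. The highest counts were 13 at Zbtb20, a zinc-finger repressor, and 12 at Hes1, a repressor induced by Notch. The segment value of Zbtb20 ran from -0.796 through a median of -0.13 to 0.281 in KB1P, and from -0.172 through -0.01 to 0.151 in KP, which lies inside the KB1P range. The lowest counts were 7 at Tbx1, a regulator of pharyngeal development, and 8 at Crebbp, a histone acetyltransferase. Gains were called in 0 to 3 KB1P tumours per factor and in 3 to 6 KB2P tumours, with 6 at Nrip1 and Gabpa. Nrip1 is a corepressor of nuclear receptors such as the oestrogen receptor.

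The 15 measured genes of kinases and signalling were lost in 6 to 13 KB1P tumours, with a median of 10. Pak2, a kinase downstream of Rac, and Tnk2, a non-receptor tyrosine kinase, were lost in 13 each, with a mean of -0.231 ± 0.294 (SD, n = 31). Socs1, a feedback inhibitor of JAK-STAT signalling, was lost in 6 and gained in 1. In KB2P each of these 15 genes was lost in 1 or 2 and gained in 3 to 5 tumours. Dvl3, the sixteenth listed gene, was not among the members.

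The 12 measured genome maintenance genes were lost in 6 to 12 KB1P tumours, with a median of 9. Parp14, an ADP-ribosyltransferase, and its neighbours Dtx3l and Parp9, which form a ubiquitin ligase complex, were lost in 12 each and gained in 0. Their segment value ran from -0.796 through a median of -0.044 to 0.281. Rmi2, a partner of the BLM helicase, was lost in 6, and Ercc4, an endonuclease of DNA repair, in 7 and gained in 3. Donson was listed but was not among the members.

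The 4 interferon and interleukin receptor genes lie side by side (chr16:91372783-91564007) and shared their calls in every genotype. Ifnar1 and Ifnar2 encode the receptor of type I interferons, Ifngr2 a chain of the interferon gamma receptor and Il10rb a chain shared by several cytokine receptors. Each was lost in 10 of 31 KB1P tumours and gained in 2, with a mean of -0.167 ± 0.310 (SD). In KB1(L1363P)P each was lost in 2 of 24, and in KB2P each was lost in 1 and gained in 3 of 25. In KP the value ran from -0.172 through -0.01 to 0.069 with no call.

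Of the 6 immune surface genes, 5 lie in the often lost middle, and their KB1P loss counts had a median of 12. Btla, an inhibitory receptor of lymphocytes, and Cd200, which signals to an inhibitory receptor on myeloid cells, were lost in 13 and gained in 0. The mean at both was -0.244 ± 0.289 (SD, n = 31) in KB1P. For KB2P, where 6 tumours had a gain, it was 0.064 ± 0.257 (SD, n = 25). Cd80 and Cd86, ligands that costimulate T cells, and Cd47, a signal against uptake by macrophages, were lost in 12 KB1P tumours each. Tnfrsf17, a receptor of plasma cells, lies apart near 11.3 Mb and was lost in 6.

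The 11 adhesion and guidance genes were lost in 9 to 13 KB1P tumours, with a median of 11. Dlg1, a scaffold of cell polarity, was lost in 13 and Lsamp, a neuronal adhesion protein, in 12. Cldn1, a tight junction protein, and Cxadr, a junction protein known as a virus receptor, were lost in 9 each. Robo1 and Robo2, receptors of the guidance cue Slit, were lost in 11 each. In KB2P a gain was called in 6 of 25 tumours at Robo1, Robo2, Cadm2, Ncam2, Jam2 and Cxadr, which all lie in the second gained interval.

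The 32 microRNA genes of the chromosome were lost in 6 to 13 KB1P tumours, with a median of 9, and the 12 listed ones in 7 to 11. The highest listed counts were 11 at Mir99a and Mirlet7c-1, which lie side by side at 77.6 Mb with Mir125b-2, also at 11. The segment value of Mir99a ran from -1.267 through -0.115 to 0.345 in KB1P. The lowest counts were 7, at Mir193b and Mir365-1 among others. Mir155, a microRNA of activated lymphocytes, was lost in 9 and gained in 1 KB1P tumour, and was gained in 6 and lost in 1 of the KB2P tumours.

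Changes of high amplitude were found in 7 tumours, counting a segment value of at least 1 as high-level gain and at most -1 as deep loss. The most broken profile was that of KB1(L1363P)P replicate 21, an adenocarcinoma, with 17 breakpoints. Between Gbe1 and Gm5965 (chr16:70313949-88778546) 88 of 118 genes were at high-level gain, interleaved with stretches of -0.035 to 0.531, and the highest value was 2.42, at small genes within the span of Robo2. Robo2 itself lay at 2.38, Gabpa, Jam2 and Mir155 at 2.04, Robo1 at 1.98, Ncam2 at 1.42, and Nrip1 with Mir99a, Mirlet7c-1 and Mir125b-2 at 1.69. From Smim11 to the end of the chromosome the same tumour lay at -0.94. The other 23 KB1(L1363P)P tumours had 2 breakpoints between them, both in replicate 13.

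In KB1P the changes of high amplitude fell in 5 tumours. Replicate 26 had 16 breakpoints, with the first 76 genes at -0.91 and high-level gain of 67 genes from Tango2 to Gm18769 (chr16:18300825-20961142). Tbx1, Cdc45, a factor of the replicative helicase, and Mir185 lay at 1.38 there, and the highest segment, from Parl to Gm18769, at 2.13. Replicate 8 had 15 genes at 1.02, Top3b among them, while it lay at -0.52 from AV205837 to the end. Replicate 8 is the tumour with conflicting labels.

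Deep loss covered more genes than high-level gain in KB1P. Replicate 29 was at deep loss at 192 of the first 242 genes (chr16:3592398-18682242), with Crebbp at -1.25 and Crkl, Lztr1, Ercc4, Top3b, Tbx1, Mir130b, Mir301b, Mir185, Mir1306, Mir193b and Mir365-1 at -1.28. Crkl is an adaptor of tyrosine kinase signalling and Lztr1 a negative regulator of Ras. The 49 genes from Gm10247 to Shisa9 between them, which include Socs1 and Rmi2, lay at -0.013. Replicate 17 was at deep loss at 180 genes from Impg2 to Gm10791 (chr16:56203839-85175255), with Nrip1, Gabpa, Epha3, Epha6, Robo1, Robo2, Cadm2, Ncam2, Jam2, Cxadr, Mir155, Mirlet7c-1, Mir99a and Mir125b-2 at -1.27. This stretch holds the genes at high-level gain in KB1(L1363P)P replicate 21 up to 85.2 Mb. Replicate 4 was at -1.14 over the last 24 genes from Get1 (chr16:96145400-98082439), with Dscam, a neuronal adhesion protein, and Ripk4, a kinase of epidermal differentiation.

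KB2P had 1 focal deep loss, in replicate 16. It lay in a loss from Gm18747 to Pigx (chr16:19018058-32099727), at -0.86 before Lpp and -0.80 beyond it, and reached -1.21 at Lpp, a protein of focal adhesions, and -1.70 at Mir28a and Gm22672 inside the Lpp gene (chr16:24393350-24992578). The log2 ratio at Mir28a before segmentation was -1.64. Lpp is longer than the deepest part, and its value is an average over its length.

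**Figure D4:**
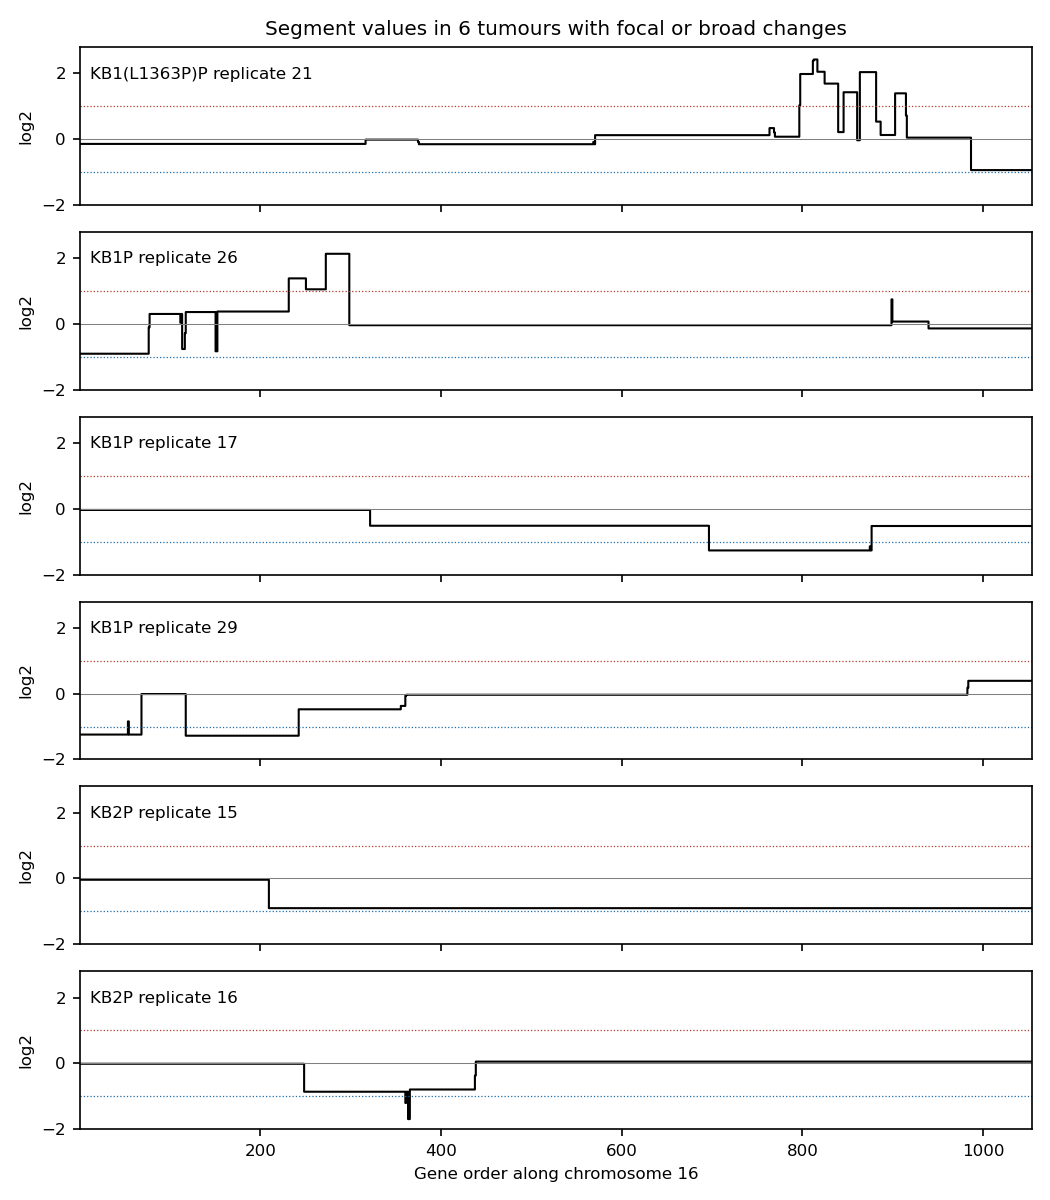
Segment value (log2) of the 1054 genes in order along the chromosome in 6 tumours, with dotted lines at 1 and -1 as the limits for high-level gain and deep loss. KB1(L1363P)P replicate 21 and KB1P replicate 26 alternate between levels many times, whereas KB2P replicate 15 changes level once.

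Breakpoints, counted as changes of at least 0.2 in segment value between neighbouring genes, numbered 157 in the 98 tumours and fell in 130 of 1053 intervals, 111 of them in 1 tumour only. A long gene that spans a change takes a value between the levels, and such a change is counted on either side of it. KB1P tumours had a mean of 2.71 ± 3.56 (SD, n = 31). KB2P tumours had 2.08 ± 2.41 (SD, n = 25), and 1.83 without replicate 12. It was 0.792 ± 3.48 (SD, n = 24) in KB1(L1363P)P, nearly all from replicate 21, and 0.111 ± 0.471 (SD, n = 18) in KP. The most shared interval, between Rbfox1 and 1700123O21Rik, was counted in 2 KB1P and 2 KB2P tumours. Rbfox1 encodes a splicing factor in a gene of 1.5 Mb. Since 1700123O21Rik lies within its span, this step sets the average over Rbfox1 against a part of it and does not place a change. In KB1P replicate 29 the value was -1.245 before Rbfox1 and -0.845 at Rbfox1. It was -1.246 on average in the run of genes that starts at 1700123O21Rik. Intervals hit in 3 tumours lie beside Rbfox1, between Shisa9 and Gm19571, at Robo2, after Mir125b-2, after Runx1 and before Bace2. Of these, the interval before Bace2 includes both KB2P tumours with nearly the same profile.

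No gene of the chromosome passed the test between KB2P and KP (0 of 1054), where limma called 12.0% of all 43513 genes at an adjusted p under 0.05, 7.89% higher and 4.12% lower in KB2P. The differences ran from -0.027 to 0.097 log2, with a median of 0.045 against -0.002 over all genes. The smallest p was shared by 12 genes with Tigit and Mir568, at a difference of 0.097 (SE 0.073, 95% interval -0.047 to 0.241, limma adjusted p = 0.443). No member had an unadjusted p under 0.05 in this fit, against 10652 of all 43513 genes. The 95% intervals of all members lay between -0.232 and 0.291, and differences within these limits are not settled by the data. All 25 KB2P tumours were adenocarcinomas, against 6 of 18 KP tumours. A separate fit on adenocarcinomas alone called 3 of all 43513 genes higher and 20 lower in KB2P. It called 0 members, with a smallest limma adjusted p of 0.998. The part of histology in the share called over all genes was not tested.

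Between KB1(L1363P)P and KP the test called 0 of 1054 genes, and 0% of all genes. The differences ran from -0.072 to 0.088, with a median of -0.031 against -0.011 over all genes. The smallest p was that of Gm46555 and 2410124H12Rik, at -0.072 (SE 0.080, 95% interval -0.230 to 0.085, limma adjusted p = 0.996). The intervals of the members lay between -0.240 and 0.304, and no member had an unadjusted p under 0.05, against 15 of all 43513 genes. These values rest on a spread estimated over all 4 genotypes. In a fit on KB1(L1363P)P and KP alone the SE at Gm46555 was 0.060. There 0 members had an unadjusted p under 0.05, against 362 of all 43513 genes, and 0 genes were called. The highest differences lie at Robo2 and its neighbours, where replicate 21 had its high-level gain. In a separate fit on adenocarcinomas alone, with 3 KB1(L1363P)P tumours of which replicate 21 is 1, the members' differences ran from -0.289 to 0.832. In that fit 87 members had an unadjusted p under 0.05, against 2173 of all 43513 genes. It called 0 members and 0 genes in all, with a smallest limma adjusted p of 0.745 among members.

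Between KB1(L1363P)P and KB2P the test called 0 of 1054 genes, where it called 12.8% of all genes, 3.38% higher and 9.42% lower in KB1(L1363P)P. The differences ran from -0.126 to 0.011, with a median of -0.067 against -0.009 over all genes. The smallest p was that of Gm49641, Gm31641 and neighbours such as Erg, at -0.126 (SE 0.073, 95% interval -0.270 to 0.018, limma adjusted p = 0.263). The members' intervals lay between -0.280 and 0.208, and no member had an unadjusted p under 0.05, against 11700 of all 43513 genes. A fit on adenocarcinomas alone, again with these 3 KB1(L1363P)P tumours, gave differences from -0.371 to 0.739. It had 79 members at an unadjusted p under 0.05, against 1851 of all 43513 genes. This fit called 0 members and 0 genes in all, with a smallest limma adjusted p of 0.226 among members. The 3 contrasts share their groups and are not independent of each other, nor of the choice of the chromosome, which used values of the same tumours. Fits with robust moderation and without KB2P replicate 12 also called 0 members in each contrast. Of all 43513 genes, robust moderation called 3383 higher and 1777 lower in KB2P than in KP. It called 1468 higher and 4058 lower in KB1(L1363P)P than in KB2P. Without replicate 12 these counts were 2921 and 1652, and 1486 and 3823. Between KB1(L1363P)P and KP both fits called 0 genes.

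**Figure D5:**
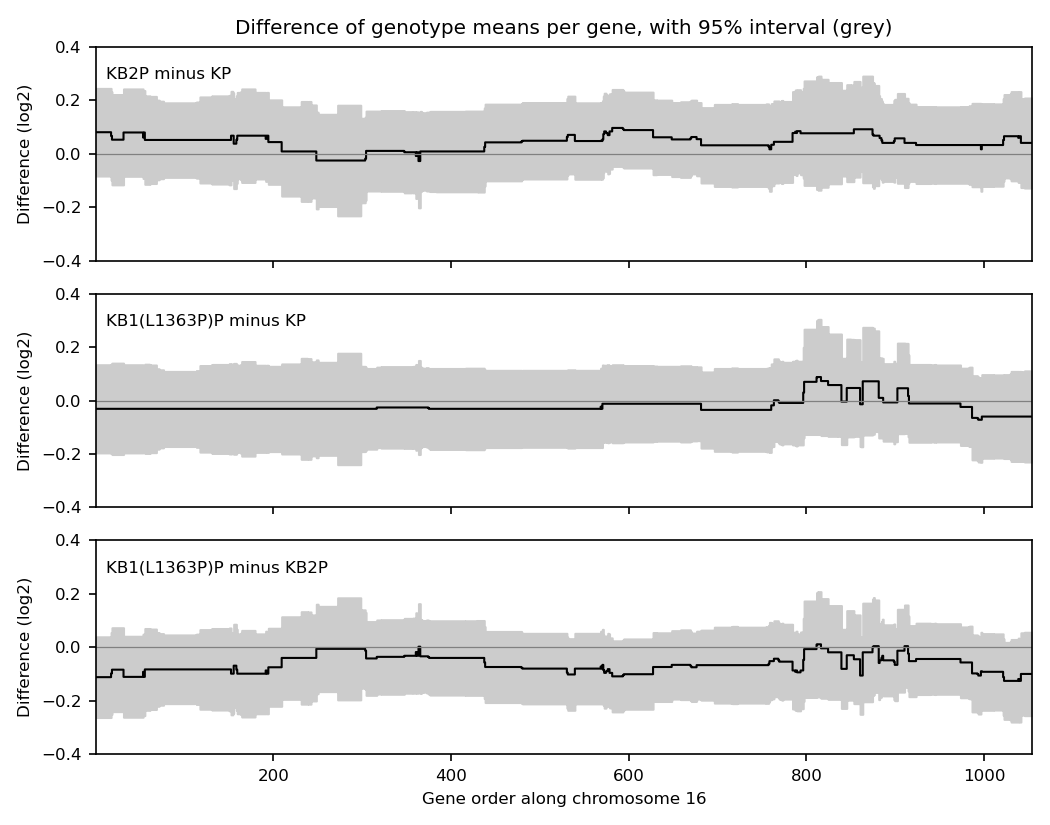
Difference of genotype means in segment value (log2, black line) per chromosome 16 gene, with its 95% interval (grey), in the 3 tested contrasts. The interval includes 0 at every gene in each contrast.

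By list, the median differences lay close to those of all members. Between KB2P and KP they ran from 0.033 in transcription factors and in interferon and interleukin receptors to 0.077 in adhesion and guidance genes, against 0.045 over all members. Between KB1(L1363P)P and KP they ran from -0.031 in several lists to -0.009 in adhesion and guidance genes, against -0.031. Between KB1(L1363P)P and KB2P they ran from -0.082 in immune surface genes to -0.040 in microRNA genes, against -0.067. None of the 75 listed members was called in any of the 3 contrasts.

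When log2 ratios before segmentation were tested in place of segment values, 4 of 1054 members were called between KB2P and KP and 4 between KB1(L1363P)P and KB2P. Over all 43513 genes the same fit called 11.8% and 12.1%, so that the members' share lay far below the background in both. Gm5063, Gm19142, Cd200r4 and Gm5964, which start between 44800199 and 44847890 on the chromosome and share 1 value, differed by 0.299 between KB2P and KP (SE 0.092, limma adjusted p = 0.021). Between KB1(L1363P)P and KB2P they differed by -0.285 (SE 0.085, limma adjusted p = 0.0171). Cd200r4 encodes a receptor of the Cd200 receptor family. Their segment values differed by 0.089 (SE 0.072, limma adjusted p = 0.492) and -0.101 (SE 0.066, limma adjusted p = 0.342).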

How the data were processed

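Low-coverage sequencing of genomic DNA gave 1 column per sample in 3 deposited tables. BWA alignment, read counts per 20-kb bin and a correction for GC content and mappability are stated in the labels' protocols. Per the submitters' processing notes, cutadapt 2.5, BWA 0.7.17, SAMtools 1.10, Picard and build mm10 were used, whereas the protocol text names a human build. The log2 ratios and the log2 segments, both deposited by the authors, entered unchanged. The deposited copy score was the rounded copy number that the segment implies for a diploid genome in 99.9919% of cells. How segments were made and which reference the ratios used is not given in the sources used here, and depth is unknown.

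Genes were placed by symbol with RefSeq GRCm38.p6: 32661 by current and 30 by older symbol, with 10822 unplaced. Members, gene lists and naming rule were all chosen with earlier results of these data known. Named were the most often lost genes per genotype, from each list the 2 most and 2 least often lost in KB1P, listed genes at segment values of at least 1 or at most -1, the 2 smallest p per contrast and genes beside the most shared breakpoints. Further genes, such as those called from log2 ratios, were named after their values were seen. Segment values were compared with limma 3.58.1 (R 4.3.3) over 43513 genes and 4 genotypes, with Benjamini-Hochberg adjustment. The procedure was checked on the same values with shuffled genotype labels and a known shift added to some genes. Because no label ties tumours to animals, p-values measure only the spread between these samples. Genes on 1 segment share its value and are not independent. Other steps used Python 3.11.15, pandas 2.3.3 and NumPy 2.4.6. Alternatives covered thresholds, centring, log2 ratios, histology, library series, and uncertain labels. Leaving out each tumour of a genotype in turn, and KB2P replicate 12, was added after seeing the data. The values of 1 listed gene are not reported here.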

Additional observations from a re-analysis of the deposited data

Results flagged for a closer look

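The highest or lowest tumour was compared with the rest of its class in KP adenocarcinomas (n = 6), KP sarcomatoid tumours (n = 10) and KB1(L1363P)P carcinosarcomas (n = 9), over 6 sets of values, and 3 tumour values stood apart by the gap to their neighbour. Chance alone gives about 1 in 20 for sets of normally spread values. That rate does not hold for the gained share and the breakpoints, where all other tumours had 0, and the classes are those on which the chromosome was chosen. The values are therefore a description.

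Among the 6 KP adenocarcinomas, replicate 4 had 7.495% of chromosome 16 genes gained and 2 breakpoints, while the other 5 had 0 of each. Both values come from the gain between Gm19771 and Gm9017. Among the 10 sarcomatoid KP tumours, replicate 10 had the lowest mean segment value at -0.099, against -0.038 in the next tumour, with no gene called.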

How the results depend on the processing

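The lost share, the mean level per genotype and the levels by histology moved by less than 1 SD between tumours under every alternative run. This is a wide limit, since the SD of the lost share exceeded its mean in KB1P, KB1(L1363P)P and KB2P. The counts of members called stayed at 0 except with log2 ratios, which gave 4 members called between KB2P and KP and 4 between KB1(L1363P)P and KB2P, where that fit called 11.8% and 12.1% of all genes. The 6 genes named from the tests kept their direction and stayed uncalled under each alternative, of which library series 5289 alone gave a value for 2 of them. Some means nevertheless shifted by over 1.5 times. In KB1(L1363P)P the lost share of 8.60% became 13.1% with a limit of -0.2, and it was 2.15% in the 3 adenocarcinomas alone. After centring on the autosomal median, values of at most -0.42 were counted as lost. The share over the 24 tumours was then 4.44%. Replicate 3, at -0.422 with an autosomal median of -0.006, fell just short of this limit. Copy scores were not recomputed after centring, so the parts of centring and of this limit were not told apart. In KB2P the share of 5.14% became 7.99% with the limit of -0.2. In KB1P it was 37.0% with that limit and 31.5% after centring. Centring turned the sign of 3 small mean levels, to 0.001 in KP, 0.024 in KB1(L1363P)P adenocarcinomas and 0.020 in KP adenocarcinomas, and gave -0.021 in KB1(L1363P)P. Leaving out 1 tumour in turn gave mean levels from -0.055 to -0.024 in KB1(L1363P)P and from 0.006 to 0.050 in KB2P. Over the 75 listed genes the KB1P loss counts ran from 7 to 15 with the limit of -0.2 and from 6 to 13 after centring.

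No paired analysis was possible because the labels give no number or animal that pairs tumours across genotypes. A whole chromosome at an even level has few breakpoints to check, and a loss call near -0.42 rests on a small margin. KB1P replicate 16 lay at a mean of -0.34 with 52 genes called lost. With depth unknown, no limit of detection is given.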
